A study of Mus musculus with 12 samples.

Results

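The subject of these data is a group of 9 transcription factors of inner retina neurons, chosen by name: the AP-2 factors Tfap2a, Tfap2b and Tfap2c, and Pax6, Prox1, Meis2, Onecut1, Onecut2 and Lhx1. The choice was made with earlier results of these data known. They are 9 of the 54232 genes in the deposited count table, and all 9 passed the filter on low counts that left 14985 genes to test. RNA was sequenced from 12 pools of 10 to 20 fluorescent retinal cells of wild-type adult male mice whose optic nerve had been crushed. Crushing the nerve cuts the axons of retinal ganglion cells, the neurons that connect the eye with the brain. The groups were AAV-Olig1 at day 7 after the crush, AAV-GFP at day 7, AAV-Olig1 at day 14 and AAV-GFP at day 14, with 3 libraries each. AAV2, an adeno-associated virus, was injected into the vitreous, and the labels give 14 days of virus for every library. Olig1, a helix-loop-helix factor best known from oligodendrocytes, was the tested gene, and GFP (green fluorescent protein) served as control. All groups shared the crush, the bead separation for CD90.2 (the Thy1 surface protein) and the picking of fluorescent cells by Unipick, a cell-picking device. The labels name no promoter for either virus and leave unsaid whether a group's libraries are separate animals; the p-values below therefore reflect library-to-library spread, some of which may be technical.

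Amacrine cells are the inhibitory interneurons of the inner retina, most of which use GABA or glycine, and horizontal cells are the inhibitory interneurons at the photoreceptor synapse. Pax6 keeps retinal progenitors multipotent and stays on in amacrine, horizontal and ganglion cells. Tfap2a and Tfap2b act together in the fate of horizontal and amacrine cells, Onecut1 and Onecut2 work upstream of horizontal cell fate, Prox1 is required for horizontal cells, and Lhx1 directs their position and is kept by mature horizontal cells. Meis2 marks GABAergic amacrine cells, and Tfap2c is found in a part of the amacrine cells.

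Levels are counts scaled to a library total of 1000000 (CPM). Total counts per library were 12534515 to 27602459, and the limit set by a gene with no counts (3 counts of the total) was 0.109 to 0.239 CPM, which covers counting error only. Olig1 itself had 1029, 249 and 723 CPM in Olig1 libraries at day 7, against 0.320, 0 and 0.351 CPM in GFP libraries. The day 14 levels were 56.4, 520 and 120 CPM in Olig1 libraries, against 0, 0.0362 and 0.250 CPM in GFP libraries. The gene was higher with the Olig1 virus over the mean of both days (log2 fold change 11.32 ± 1.11 (SE), edgeR adjusted p = 0.000261). The pools were not pure for the labelled ganglion cells. The summed level of 22 ganglion cell markers was 3379 to 6149 CPM in Olig1 libraries and 315 to 473 CPM in GFP libraries at day 7. At day 14 it was 301, 6191 and 310 CPM in Olig1 libraries and 347 to 462 CPM in GFP libraries, so Olig1 replicate 2 alone lay above the GFP libraries. Sncg gave 2261 CPM and Opn4 2163 CPM of the sum in that library. The markers differed widely in level. Pou4f1, a defining ganglion cell factor, did not exceed 4.56 CPM in any library. In Olig1 libraries at day 7, Pou4f2 reached at most 5.34 CPM, while Sncg had 653 to 817 CPM and Stmn2 627 to 817 CPM. The 18 Müller glia markers summed to 51430 CPM or more in every library. Apoe, a lipid carrier, gave 38970 CPM or more of that sum in each. In bulk pools, fewer cells of a type and less RNA per cell cannot be told apart.

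A pair of Olig1 libraries stood apart from all other pairs. Of the 3128 genes at 50 CPM or more in Olig1 day 7 replicate 1, 0 fell below 0.1 times that level in Olig1 day 7 replicate 2. The lowest ratio of replicate 2 to replicate 1 was 0.127, and 50.7% of these genes had a ratio between 0.178 and 0.282. In the other 131 ordered pairs of libraries, between 1.22% and 33.5% of such genes lay below 0.1, and the densest band of that width held 10.4% to 31.5% of them. Levels in replicate 2 thus kept above a floor that followed the levels in replicate 1, and the source of that floor was not tested. Among the 9 factors, the ratio of replicate 2 to replicate 1 was 0.199 for Meis2, 0.209 for Tfap2a, 0.275 for Onecut2 and 0.289 for Tfap2c, near or inside that band. It was 0.361 for Pax6, 0.623 for Tfap2b and 2.35 for Prox1. Onecut1 and Lhx1 had 0 counts in both libraries. Olig1 itself had a ratio of 0.242, inside the band. The edgeR comparisons of Olig1 with GFP at day 7 are therefore also given without replicate 2 (16497 genes tested, 0.0606% of them called), while DESeq2 and limma were run with all 12 libraries in each case.

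**Figure D1:**
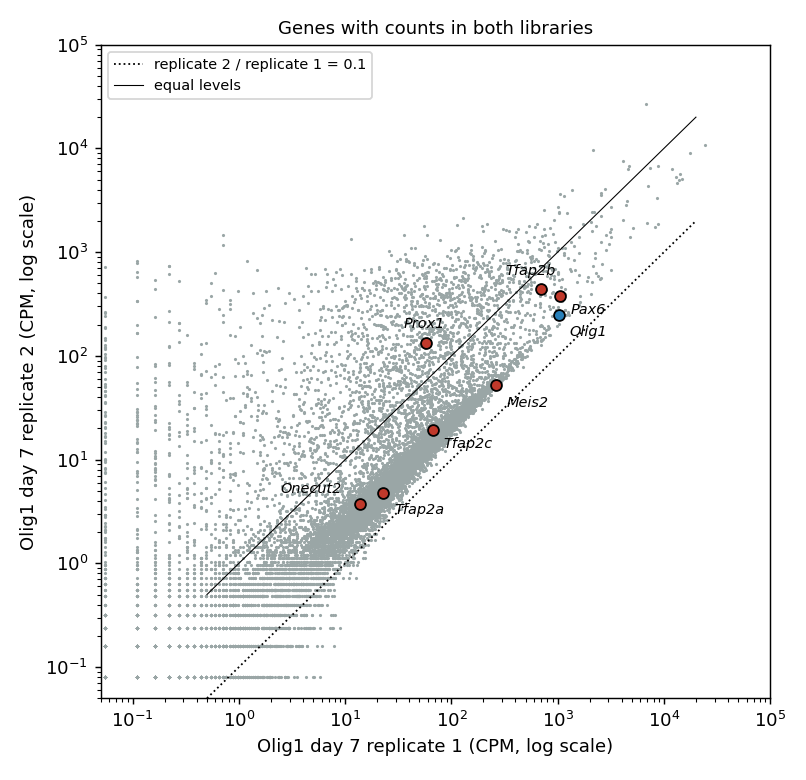
Level of each gene with counts in both libraries, in Olig1 day 7 replicate 1 (x axis, CPM, log scale) and Olig1 day 7 replicate 2 (y axis, CPM, log scale). Grey points are genes, red points are factors of the group with counts in both, and the blue point is Olig1. Above 50 CPM in replicate 1 no gene lies below the dotted line at a ratio of 0.1. Meis2, Tfap2a, Onecut2 and Tfap2c lie in or near the densest band of ratios, 0.178 to 0.282.

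Stretches before a RefSeq start of Tfap2b, Tfap2a and Prox1 are shown because Olig1 belongs to the basic helix-loop-helix factors, which bind E-boxes. The genes represent a factor that was called higher with Olig1, its closest relative, and a factor whose groups overlapped at both days. Each is the 250 bases before a RefSeq start (GRCm38.p6) and holds no exon base of the GENCODE annotation. All are printed on the gene's own strand. The Tfap2b and Tfap2a windows lie inside the annotated span of their gene, before an internal start, and the Prox1 window lies outside its gene. Capitals mark matches to the E-box letters CANNTG or to the AP-2 letters GCCNNNGGC; both motifs read the same on the 2 strands, so 1 search covers both, and no match of one overlapped a match of the other.
Tfap2b, chr1:19211804-19212053, plus strand: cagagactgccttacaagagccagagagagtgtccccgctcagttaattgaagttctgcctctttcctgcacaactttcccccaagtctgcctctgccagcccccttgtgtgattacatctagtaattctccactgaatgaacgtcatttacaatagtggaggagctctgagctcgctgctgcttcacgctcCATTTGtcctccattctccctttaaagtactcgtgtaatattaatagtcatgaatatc
Tfap2a, chr13:40734921-40735170, minus strand: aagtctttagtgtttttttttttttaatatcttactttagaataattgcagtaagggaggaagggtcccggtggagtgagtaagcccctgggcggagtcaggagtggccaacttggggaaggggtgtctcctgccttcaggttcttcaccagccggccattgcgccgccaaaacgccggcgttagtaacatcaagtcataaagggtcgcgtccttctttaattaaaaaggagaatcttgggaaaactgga
Prox1, chr1:190170828-190171077, minus strand: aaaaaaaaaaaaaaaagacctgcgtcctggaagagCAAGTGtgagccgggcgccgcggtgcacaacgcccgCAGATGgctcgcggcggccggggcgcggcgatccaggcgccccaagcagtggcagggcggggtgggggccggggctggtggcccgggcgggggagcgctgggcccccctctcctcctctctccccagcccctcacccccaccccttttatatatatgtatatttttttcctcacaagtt
The Tfap2b window held 1 E-box (CATTTG), the Tfap2a window 0 matches and the Prox1 window 2 E-boxes (CAAGTG and CAGATG). RefSeq gives Prox1 another start as well, whose window, also free of exon bases, held 0 matches of either motif. Another start of Tfap2a has a window with 180 exon bases and 0 matches of either motif. Of 32851 windows of the same length, 66.2% held an E-box and 13.7% an AP-2 match, so these matches are a description of the letters only.

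Of the AP-2 factors, Tfap2b was called higher in Olig1 libraries over the 2 days together, and Tfap2a and Tfap2c had groups that did not overlap at day 7 without passing the test. Tfap2b (ENSMUSG00000025927, chromosome 1, 19208914 to 19238576, GRCm38) had 702, 437 and 622 CPM in Olig1 libraries at day 7, against 121, 87.2 and 73.1 CPM in GFP libraries. The 3 Olig1 values were all higher than the 3 GFP values, and the lowest Olig1 library was replicate 2. At day 14 Tfap2b had 401, 196 and 760 CPM in Olig1 libraries, against 245, 129 and 253 CPM in GFP libraries. The groups overlapped at day 14, because Olig1 replicate 2 lay below GFP replicates 1 and 3. The log2 fold change of Olig1 over GFP was 2.82 ± 0.56 (SE) at day 7 (edgeR adjusted p = 0.0567, place 37 of 14985 by p) and 1.02 ± 0.53 at day 14 (adjusted p = 0.550), so neither day passed the threshold of 0.05. Without Olig1 day 7 replicate 2 the day 7 value was 2.71 ± 0.55 (adjusted p = 0.0987).

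Over the mean of both days, 6 libraries against 6, Tfap2b rose, with a log2 fold change of 1.92 ± 0.39 (edgeR adjusted p = 0.0334). It was the 1 factor of 9 called in this comparison, in which 0.654% of all genes were called and 0.38% were called higher. DESeq2 called 3 factors there, Tfap2b and Tfap2c among them, with 8.22% of all genes that had an adjusted p. The call rested on single libraries. It held without Olig1 day 7 replicate 3 (adjusted p = 0.0352) and without Olig1 day 14 replicate 2 (0.0255). Among the other Olig1 libraries, leaving out day 7 replicate 1 (0.0604), day 7 replicate 2 (0.0548), day 14 replicate 1 (0.0579) or day 14 replicate 3 (0.0903) ended the call. So did leaving out any GFP library, with 0.0892, 0.0825 and 0.115 for replicates 1, 2 and 3 of day 7 and 0.0684, 0.103 and 0.0562 for those of day 14. Over these 12 fits the log2 fold change stayed between 1.63 and 2.12, and the adjusted p over all 19 alternatives ran from 0.000781 to 0.148.

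Tfap2a (ENSMUSG00000021359, chromosome 13, 40715302 to 40738376), the closest relative of Tfap2b, was far lower in level. It had 22.9, 4.79 and 32.1 CPM in Olig1 libraries at day 7, against 0, 0 and 2.52 CPM in GFP libraries. The groups did not overlap, and GFP replicate 3 held all 43 of the GFP counts. At day 14 Tfap2a had 5.43, 0.326 and 5.21 CPM in Olig1 libraries, against 1.22, 5.22 and 1.38 CPM in GFP libraries, and the groups overlapped. The log2 fold change was 4.63 ± 2.37 at day 7 (edgeR adjusted p = 0.402) and 0.50 ± 2.05 at day 14 (adjusted p = 1), neither past the threshold. Without Olig1 day 7 replicate 2 the day 7 value was 4.98 ± 2.63 (adjusted p = 0.648). Without GFP day 7 replicate 3 the GFP group had 0 counts, which allows no fitted fold, and the adjusted p was 0.353. Tfap2a shares 380, 265 and 73 exon bases with 3 antisense genes (Gm26688, Gm47061 and Gm47067), and the strand setting of the counting is not given, so reads there could not be assigned with certainty.

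Tfap2c (ENSMUSG00000028640, chromosome 2, 172549593 to 172558622) had nearly all of its counts in Olig1 libraries. It had 66.4, 19.2 and 1.82 CPM in Olig1 libraries at day 7, against 0, 0.274 and 0.117 CPM in GFP libraries. On day 14 the values were 0, 13.3 and 8.78 CPM in Olig1 libraries, against 0, 0 and 0.334 CPM in GFP libraries. The pooled counts were 1490 in Olig1 and 7 in GFP libraries at day 7, and 491 in Olig1 and 8 in GFP libraries at day 14. Olig1 day 7 replicate 1 held 82.0% of the day 7 Olig1 counts, and Olig1 day 14 replicate 1 had none. Its fitted log2 fold change was 7.78 ± 2.91 at day 7 (edgeR adjusted p = 0.275), 5.68 ± 2.65 at day 14 (adjusted p = 0.472) and 6.73 ± 1.96 across both days combined (adjusted p = 0.123), none of them past the threshold. With Olig1 day 7 replicate 2 left out, the day 7 value was 7.73 ± 3.22 (adjusted p = 0.648).

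Per kilobase of exon, which allows levels of different genes to be compared, Tfap2b dominated the 3 AP-2 factors in every library. Its share of their summed CPM per kilobase was 83.0% to 93.3% in Olig1 libraries and 95.5% to 100% in GFP libraries at day 7, and 89.4% to 98.3% in Olig1 libraries and 95.0% to 99.4% in GFP libraries at day 14. Tfap2c reached 13.5% of that sum in Olig1 day 7 replicate 1 and 10.4% in Olig1 day 14 replicate 2, against at most 0.538% in the GFP libraries. Tfap2a reached 6.22% in Olig1 day 7 replicate 3, and at most 4.97% in the GFP libraries.

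**Figure D2:**
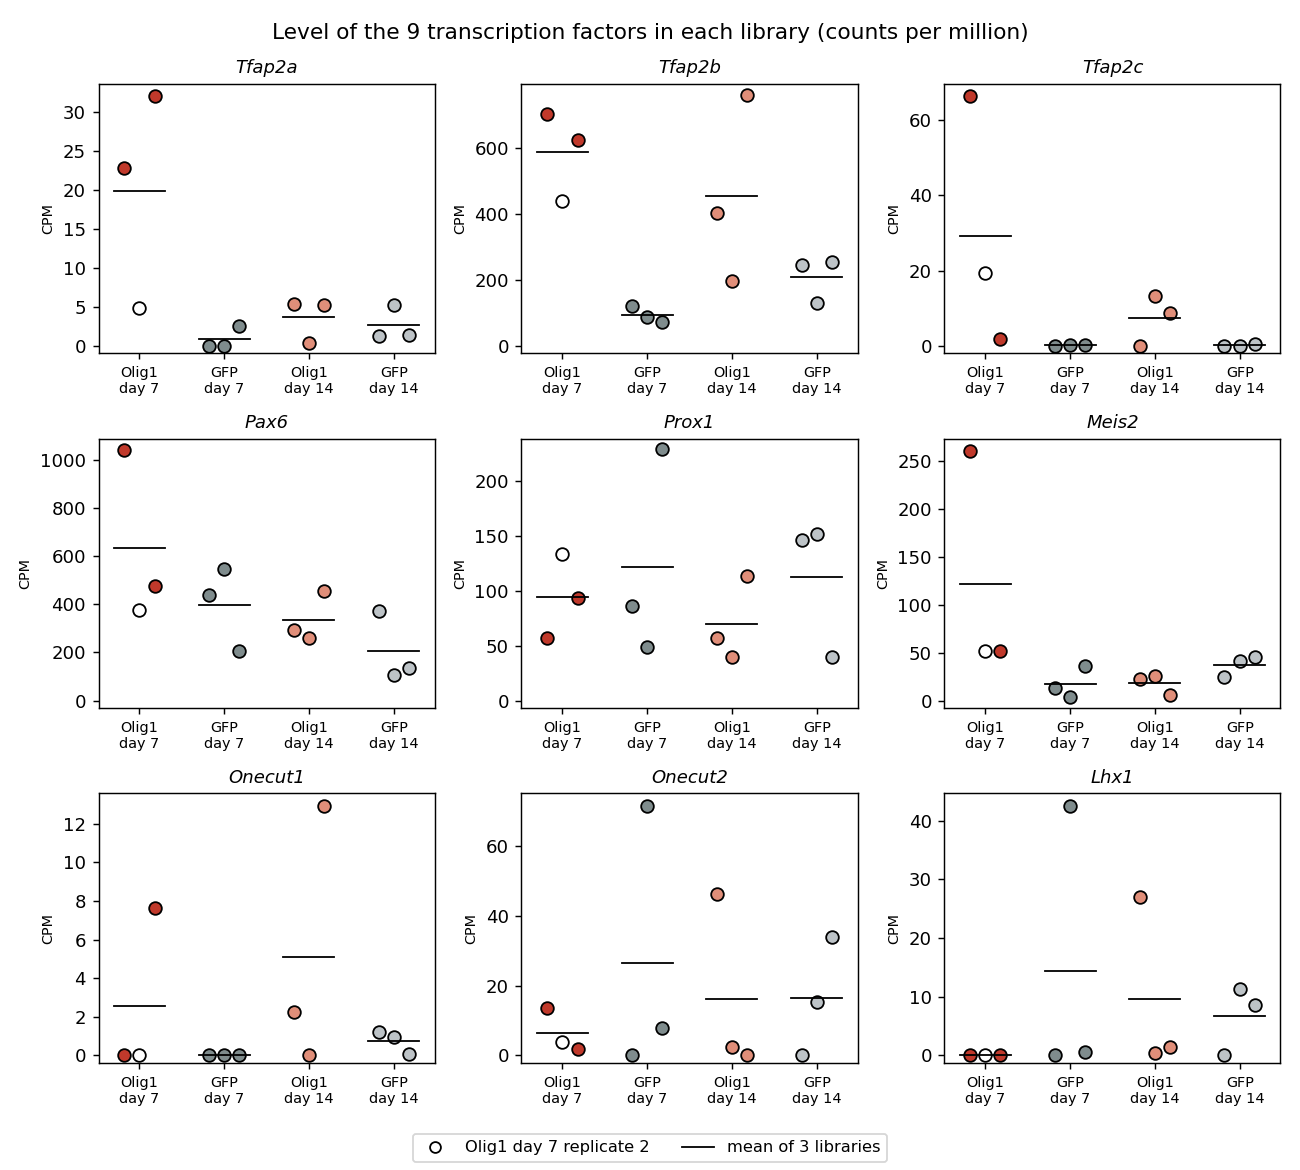
Level of each of the 9 factors (y axis, CPM, linear, a scale of its own in each panel) in each of the 12 libraries, by group (x axis), with 1 point per library and a line at the mean of 3. At day 7 all Olig1 points of Tfap2a, Tfap2b, Tfap2c and Meis2 lie above all GFP points, and at day 14 the groups of every factor overlap; the open point is Olig1 day 7 replicate 2.

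Pax6 was abundant in every pool and its groups overlapped at both days. Pax6 (ENSMUSG00000027168, chromosome 2, 105668900 to 105697364) had 1043, 376 and 478 CPM in Olig1 libraries at day 7, against 437, 548 and 204 CPM in GFP libraries. At day 14 it had 295, 260 and 454 CPM in Olig1 libraries, against 372, 107 and 137 CPM in GFP libraries. The highest library was Olig1 day 7 replicate 1 and the lowest GFP day 14 replicate 2. The log2 fold change was 0.76 ± 0.55 at day 7 (edgeR adjusted p = 0.593), 0.74 ± 0.55 at day 14 (adjusted p = 0.822) and 0.75 ± 0.39 across both days combined (adjusted p = 0.395), none past the threshold. Without Olig1 day 7 replicate 1 the day 7 value was 0.41, and without replicate 2 it was 0.78 ± 0.56 (adjusted p = 0.759).

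Meis2 (ENSMUSG00000027210, chromosome 2, 115863064 to 116065839), a homeodomain factor of the TALE class, had opposite signs at the 2 days. At day 7 it had 261, 51.9 and 51.5 CPM in Olig1 libraries, against 12.7, 3.72 and 36.5 CPM in GFP libraries. Each Olig1 value exceeded each GFP value, and Olig1 replicate 1 stood well above the rest. The day 14 levels were 22.8, 26.2 and 5.48 CPM in Olig1 libraries, against 24.7, 41.8 and 45.9 CPM in GFP libraries, where Olig1 replicate 2 lay above GFP replicate 1 and the groups overlapped. Its fitted log2 fold change was 2.92 ± 0.98 at day 7 (edgeR adjusted p = 0.256) and -1.13 ± 0.92 at day 14 (adjusted p = 0.866), neither past the threshold. Without Olig1 day 7 replicate 2 the day 7 value was 3.09 ± 1.03 (adjusted p = 0.560), and without replicate 1 it was 2.02 ± 1.09 (adjusted p = 0.499). The difference of the Olig1 effect, day 14 minus day 7, was -4.04 ± 1.33 (adjusted p = 0.348), and the corresponding value for Tfap2b was -1.80 ± 0.75 (adjusted p = 0.455). With Olig1 day 7 replicate 2 left out, these were -4.22 ± 1.38 (edgeR adjusted p = 0.589) for Meis2 and -1.69 ± 0.73 (0.597) for Tfap2b. No factor and 0 of all genes (0%) were called for this difference by edgeR at adjusted p under 0.05, where 1484 genes had an unadjusted p under 0.05, so a different effect at the 2 days was not shown. DESeq2 called 527 genes there (3.89%), Onecut1 as the 1 factor, and Meis2 was at an adjusted p of 0.0512.

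Prox1 (ENSMUSG00000010175, chromosome 1, 190118035 to 190170714), which horizontal cells need and which Müller glia and AII amacrine cells also carry, was present in all 12 libraries. It had 57.0, 134 and 93.2 CPM in Olig1 libraries at day 7, against 86.0, 48.7 and 229 CPM in GFP libraries. On day 14 the values were 56.8, 39.5 and 113 CPM in Olig1 libraries, against 146, 151 and 39.5 CPM in GFP libraries. The ranges overlapped almost wholly at both days. On the log2 scale the fold change was 0.06 ± 0.73 at day 7 (edgeR adjusted p = 0.990) and -0.61 ± 0.73 at day 14 (adjusted p = 0.970). The day 7 sign was not stable, with -0.75 ± 0.73 without Olig1 day 7 replicate 2, -0.16 and -0.27 without GFP day 7 replicates 1 and 2, and -0.38 by limma voom. Prox1 shares 133 exon bases with the antisense gene Prox1os.

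The factors of the horizontal cell lineage, Onecut1, Onecut2 and Lhx1, were low and came from a few libraries. Onecut2 had 13.6, 3.75 and 1.89 CPM in Olig1 libraries at day 7, against 0, 71.7 and 7.90 CPM in GFP libraries. At day 14 it had 46.4, 2.40 and 0.0532 CPM in Olig1 libraries, against 0, 15.2 and 34.1 CPM in GFP libraries. Lhx1 (ENSMUSG00000018698, chromosome 11, 84518284 to 84525535) had 0, 0 and 0.135 CPM in Olig1 libraries at day 7, against 0, 42.5 and 0.585 CPM in GFP libraries. The day 14 levels were 26.9, 0.489 and 1.49 CPM in Olig1 libraries, against 0, 11.4 and 8.60 CPM in GFP libraries. The 4 libraries with the most Lhx1 were also the 4 with the most Onecut2, namely GFP day 7 replicate 2, Olig1 day 14 replicate 1 and GFP day 14 replicates 2 and 3. For both genes Olig1 and GFP groups overlapped at each day. GFP day 7 replicate 2 alone held 98.7% of the Lhx1 counts and 90.7% of the Onecut2 counts of its group. The edgeR adjusted p at days 7 and 14 was 0.772 and 1 for Onecut2, and 0.297 and 1 for Lhx1. The day 7 values without Olig1 day 7 replicate 2 were 0.955 for Onecut2 and 0.648 for Lhx1.

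Onecut1 (ENSMUSG00000043013, chromosome 9, 74861921 to 74891781) followed other libraries. It had 0, 0 and 7.64 CPM in Olig1 libraries at day 7, against 0 CPM in all 3 GFP libraries. On day 14 the values were 2.28, 0.0407 and 12.9 CPM in Olig1 libraries, against 1.22, 0.978 and 0.0835 CPM in GFP libraries. Most of its counts came from Olig1 replicate 3 of each day, with 100% of the Olig1 counts at day 7 and 83.5% at day 14. The pooled day 7 level was at least 44.6-fold higher in Olig1 libraries, taking 3 counts over the GFP group as the limit of its 0 counts, and 1 library gave all of it. The adjusted p was 0.307 at day 7 and 0.931 at day 14 (edgeR), and 0.648 at day 7 without Olig1 replicate 2. Onecut1 shares 2171 of its 4113 exon bases with Gm20649, a noncoding gene on the same strand that had 0 counts. The annotation used for the counting is not given, so the Onecut1 counts and its level per kilobase are uncertain.

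Of 13 genes listed as horizontal cell effectors, 3 (Calb1, Sept4 and Slc4a3) had their highest day 7 level in GFP replicate 2. That library was the highest at day 7 for Lhx1 and Onecut2. For 8 others the highest day 7 level was in an Olig1 library, among them Tpm3 (1783 CPM) and the neurofilaments Nefl, Nefm and Nefh. Not all 13 are particular to horizontal cells. The 3 neurofilaments were also listed as ganglion cell markers and Slc32a1 as an amacrine effector gene. Mgarp, another of the 13, had 3290 CPM or more in every library. Calbindin (Calb1), a calcium buffer of horizontal cells and of some amacrine and ganglion cells, had 169, 40.4 and 115 CPM in Olig1 libraries at day 7, against 72.2, 1403 and 108 CPM in GFP libraries, and 12330, 5057 and 3678 CPM in Olig1 libraries at day 14, against 616, 1398 and 8428 CPM in GFP libraries. Sept4, a septin, reached 2136 CPM in GFP day 7 replicate 2. At day 14 Olig1 replicate 1 was the highest library for Lhx1 and Onecut2 and for 5 of the 13 genes, among them Calb1, Sept4 (3785 CPM) and Tpm3 (1838 CPM), and Olig1 replicate 2 was the highest for 5 others. Gja10, the connexin of horizontal cell gap junctions, was detected in Olig1 day 14 replicate 1 (2.33 CPM) and in GFP day 14 replicates 2 (6.78 CPM) and 3 (0.209 CPM) and was at 0 in the other libraries. Those 3 libraries were among the 4 with the most Lhx1.

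**Figure D3:**
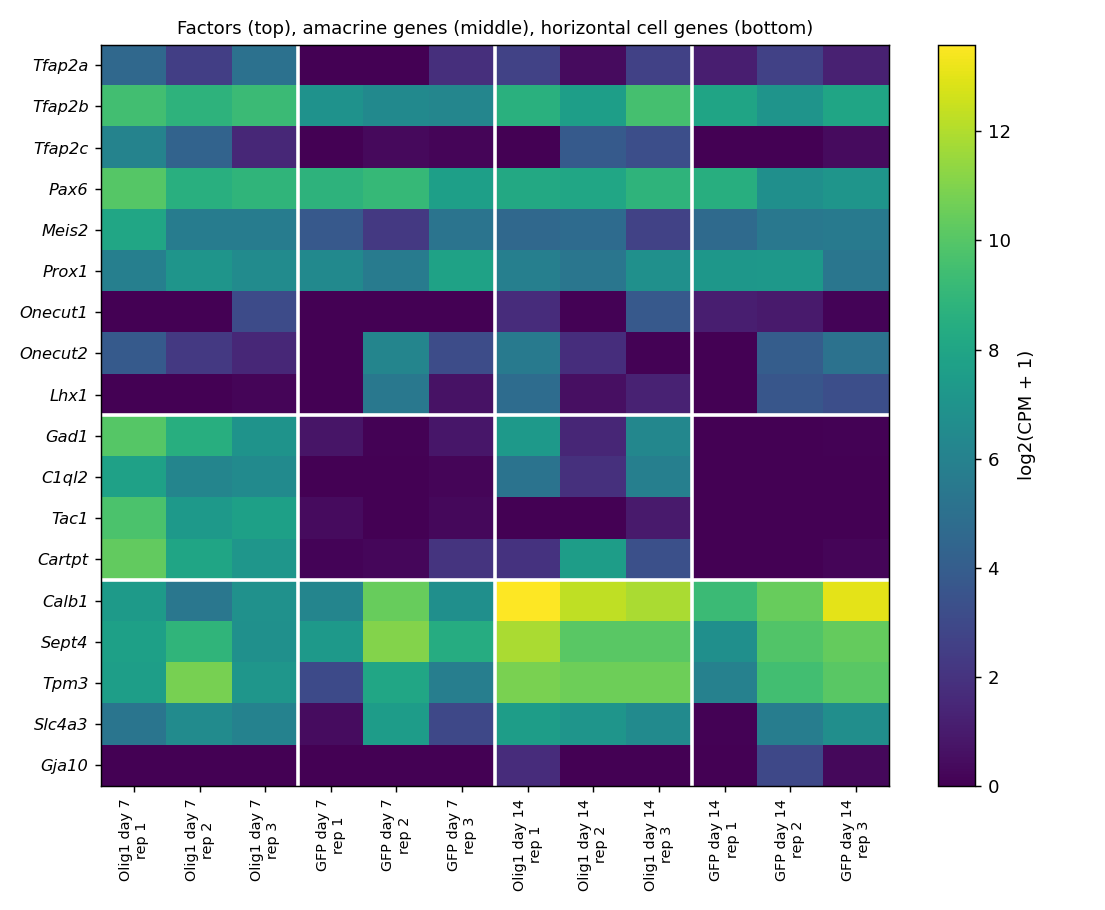
Level, as log2(CPM + 1), in each library (columns, by group and replicate). The blocks hold the 9 factors (upper), 4 genes of the amacrine effector list called over the mean of both days (middle) and 5 genes of the horizontal cell effector list (lower). Lhx1 and Onecut2 are brightest in the same libraries, among them GFP day 7 replicate 2, which is also the brightest day 7 column for Calb1 and Sept4; Gad1 and C1ql2 are dark in all 6 GFP columns.

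Taking the 9 factors as a group, 0 were called at day 7 by edgeR, where 34 of all genes (0.227%) were called. At an unadjusted p under 0.05 at day 7, Tfap2b, Tfap2c, Meis2 and Onecut1 were higher and Lhx1 lower in Olig1 libraries, against 13.9% of all genes in either direction. The 4 higher factors were still under 0.05 without Olig1 day 7 replicate 2 and Lhx1 was not (unadjusted edgeR p of 0.0701), against 7.5% of all genes. DESeq2 called 4 factors at day 7 (Tfap2b, Tfap2c, Meis2 and Onecut1), with 6.73% of the 13823 genes for which it gave an adjusted p, and limma voom called Tfap2b alone (adjusted p = 0.0212), with 2.73% of all genes. The Olig1 libraries lay wholly above the GFP libraries for 4 of 9 factors at day 7 (Tfap2a, Tfap2b, Tfap2c and Meis2), against 9.4% of all genes. The same 4 factors did so without Olig1 day 7 replicate 2, against 15.9% of all genes. At day 14, 0 factors were called by edgeR, 0 by DESeq2 and 0 by limma voom, where edgeR called 6 of all genes (0.04%), DESeq2 5.54% of the 13549 with an adjusted p and limma voom 0.2%, and Tfap2c alone had an unadjusted p under 0.05, against 10.4% of all genes. At day 14 the Olig1 libraries lay wholly above the GFP libraries for 0 of 9 factors, against 7.78% of all genes. The median log2 fold change of the 9 factors was 2.82 at day 7 and 0.50 at day 14, against -0.03 and 0.09 over all genes tested, and without Olig1 day 7 replicate 2 the day 7 medians were 2.71 and -0.04. Because the factors were chosen with earlier results of these data known, the contrast with all genes is a description only.

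**Figure D4:**
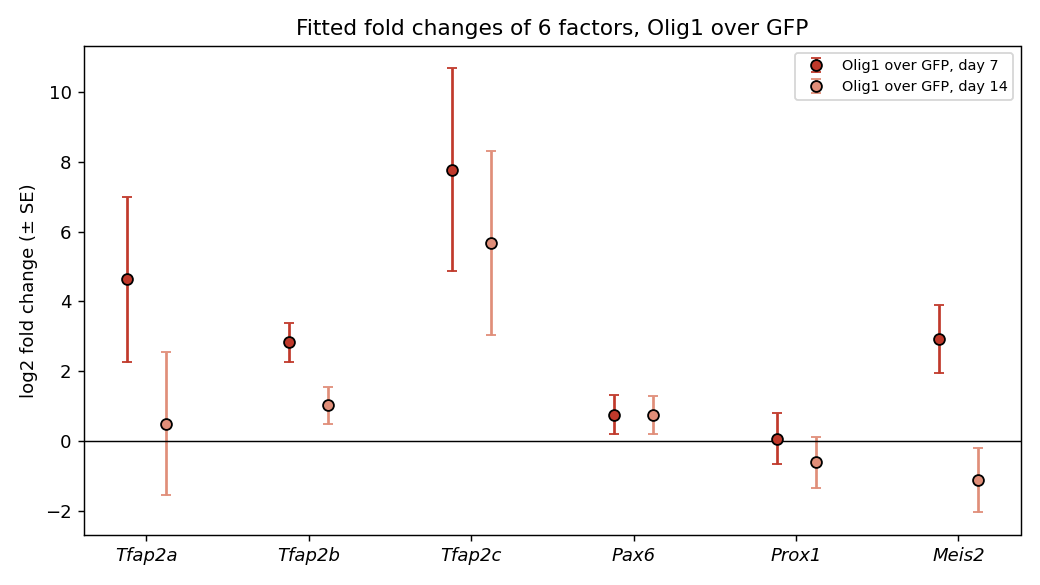
Log2 fold change of Olig1 over GFP (y axis, point ± SE from edgeR) at day 7 and day 14 for the 6 factors whose fold changes are given. Tfap2b lies at 2.82 ± 0.56 on day 7, and Meis2 lies at 2.92 on day 7 and -1.13 on day 14; no point passed an adjusted p of 0.05.

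Time after the crush was compared within each virus. In Olig1 pools, day 14 against day 7, 0 of 9 factors were called, where 5 of all genes (0.0334%) were called. The log2 change was -0.27 ± 0.53 for Tfap2b (edgeR adjusted p = 0.916), -0.75 ± 0.55 for Pax6 (0.662) and -2.51 ± 0.96 for Meis2 (0.373), and without Olig1 day 7 replicate 2 it was -0.28 ± 0.54 (1), -0.90 ± 0.56 (0.798) and -2.79 ± 1.02 (0.739) for the same genes, with 0 factors called. In GFP pools 0 of 9 factors and 0 of all genes (0%) were called by edgeR, with 1540 genes at an unadjusted p under 0.05, while DESeq2 called 640 genes (4.63%), Onecut1 among them, and limma voom 18 (0.12%). Tfap2b was at 1.53 ± 0.54 there (edgeR adjusted p = 0.442), with all 3 day 14 libraries above all 3 day 7 libraries, against 3.96% of all genes. Pax6 was at -0.73 ± 0.55 (0.795) and Meis2 at 1.54 ± 0.93 (0.649).

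Per kilobase of exon and over all 12 libraries, Tfap2b had the highest mean level of the group, 53.0 ± 38.8 CPM per kilobase (SD, n = 12). Pax6 followed at 33.6 ± 21.1 and Prox1 at 11.9 ± 6.88 CPM per kilobase. Meis2 (4.04 ± 5.71), Tfap2c (2.50 ± 5.20), Lhx1 (1.89 ± 3.34), Tfap2a (1.38 ± 2.06), Onecut2 (1.01 ± 1.41) and Onecut1 (0.510 ± 0.984 CPM per kilobase) stood below them. Each of these last 6 had an SD above its mean, and the neighbours among them lay within each other's spread, as did Tfap2b and Pax6. The means of Pax6 and Prox1, and those of Prox1 and Meis2, lay outside each other's SD. The order of the first 3 was not the same in every group: in GFP libraries at day 7 Pax6 had 33.9 ± 15.0, Tfap2b 14.8 ± 3.93 and Prox1 14.45 ± 11.3 CPM per kilobase (SD, n = 3), while Tfap2b had the highest mean in the other 3 groups.

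Other genes of the same cell types were set beside the factors. Of 34 further amacrine and horizontal cell transcription factors, 26 could be tested, and 0 were called at day 7 or day 14, where 0.227% and 0.04% of all genes were called. Their median log2 fold change was -0.34 at day 7 and 0.30 at day 14, and without Olig1 day 7 replicate 2, where 28 could be tested, the day 7 median was 0.03 with 0 called. The 34 factors summed to 1155 to 1402 CPM in Olig1 libraries and 1652 to 2394 CPM in GFP libraries at day 7. A few genes carried most of that difference. Day 7 means in GFP and Olig1 libraries were 424 and 86.5 CPM for Tcf4, 330 and 37.9 CPM for Neurod4, and 301 and 46.5 CPM for Neurod1. Of the 26 tested, 12 had a positive log2 fold change at day 7. The day 14 sums were 899 to 1136 CPM in Olig1 libraries and 752 to 1530 CPM in GFP libraries. The smallest p at day 7 belonged to Nr4a2, an orphan nuclear receptor, Tcf4, an E-protein partner of helix-loop-helix factors (-2.32 ± 0.67, edgeR adjusted p = 0.202), and Neurod4, a neurogenic factor (-3.12 ± 0.97, adjusted p = 0.229). Leaving out Olig1 day 7 replicate 2 gave an edgeR adjusted p of 0.566 for Nr4a2, 0.568 for Tcf4 (-1.99 ± 0.67) and 0.631 for Neurod4 (-2.63 ± 0.93). At day 14 they belonged to Ebf3, with 0.145, 137 and 3.08 CPM in Olig1 libraries against 0, 0.0362 and 0 CPM in GFP libraries, to Nr4a2, and to Six3, a homeodomain factor (1.57 ± 0.55, adjusted p = 0.438). Nr4a2 had 47.5, 337 and 51.4 CPM in Olig1 libraries at day 7, against 0.107, 0.0547 and 0.0585 CPM in GFP libraries, and 4.70, 0.0407 and 0 CPM in Olig1 libraries at day 14, against 0 CPM in all GFP libraries. It was the 1 gene of this list called over the mean of both days (edgeR adjusted p = 0.0305). That call was lost without any 1 of Olig1 day 7 replicate 2, Olig1 day 14 replicate 1 and the 6 GFP libraries (adjusted p from 0.0711 to 0.146). Ptf1a and Foxn4, which start the amacrine and horizontal programme in progenitors, had 0 counts in every library.

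Among genes listed as amacrine cell effectors, of transmitters and synapses, 4 were called in at least 1 comparison. Which cells of the pools expressed the listed genes was not tested. Of 28 such genes 22 could be tested, and 2 rose at day 7, 2 rose at day 14 and 4 rose over both days combined, with 0 lower in each, where 0.227%, 0.04% and 0.654% of all genes were called in either direction. Gad1, which makes GABA, had 1022, 373 and 126 CPM in Olig1 libraries at day 7, against 0.693, 0.0547 and 0.761 CPM in GFP libraries, and 154, 1.79 and 76.0 CPM in Olig1 libraries at day 14, against 0, 0 and 0.0418 CPM in GFP libraries. C1ql2, a secreted synaptic protein, had 215, 72.1 and 90.7 CPM in Olig1 libraries at day 7, against 0, 0 and 0.117 CPM in GFP libraries, and 35.0, 2.73 and 58.0 CPM in Olig1 libraries at day 14, against 0 CPM in all GFP libraries. Both passed at day 7 (edgeR adjusted p = 0.0204 for Gad1 and 0.0178 for C1ql2), at day 14 (0.0335 for each) and across the 2 days combined (0.000996 for each). The call across the combined days held for both genes in all 12 fits that left out 1 library (adjusted p from 0.000131 to 0.0180). At single days it was lost for Gad1 without Olig1 day 7 replicate 2 (0.0666) or any 1 GFP library of day 7 (0.123 to 0.199), and for C1ql2 without Olig1 day 7 replicate 1 (0.0508) or any 1 GFP library of day 7 (0.0681 to 0.0840). Of the 6 fits that left out 1 day 14 library, both genes kept the day 14 call only in the fit without Olig1 replicate 2 (0.00764 and 0.0207), with 0.0513 to 0.369 in the others.

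Cartpt and Tac1, neuropeptide genes, were called over the mean of both days (edgeR adjusted p = 0.0285 and 0.0275), each lost without Olig1 day 7 replicate 2 (0.104 and 0.0548). Leaving out any 1 of GFP day 7 replicates 1 and 2 and the 3 GFP day 14 libraries also ended the Cartpt call (0.0872 to 0.105), and any 1 GFP library or Olig1 day 14 replicate 3 ended the Tac1 call (0.0527 to 1). Slc6a9, the glycine transporter of glycinergic amacrine cells, had 12.6, 0.718 and 2.16 CPM in Olig1 libraries at day 7, against 12.2, 0.438 and 1.64 CPM in GFP libraries. Chat, of cholinergic amacrine cells, was detected in Olig1 day 7 replicate 3 (10.0 CPM) and was at 0 in the other 11 libraries.

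Of 13 horizontal cell effector genes 12 could be tested, with 0 called at day 7, at day 14 or over the mean of both, where 0.227%, 0.04% and 0.654% of all genes were called, so a count of 0 is near that background. The median log2 fold change was 2.30 at day 7 and 1.42 at day 14. The day 7 median was 0.47, with 0 of 13 called, without Olig1 day 7 replicate 2. Those with the smallest p at day 7 included Nefm, a neurofilament shared with ganglion cells (4.97 ± 1.54, edgeR adjusted p = 0.236), and Mgarp, a mitochondrial protein (-0.84 ± 0.31, adjusted p = 0.275), and without Olig1 day 7 replicate 2 they were at 3.63 ± 1.37 and -0.67 ± 0.30 (edgeR adjusted p = 0.648 for each). At day 14 they included Sema3a, with 8.92, 0.0815 and 14.7 CPM in Olig1 libraries against 0 CPM in all GFP libraries, and Nefh, the heavy neurofilament (3.76 ± 1.78, adjusted p = 0.479). The list summed to 7211 to 11790 CPM in Olig1 libraries and 13920 to 19070 CPM in GFP libraries at day 7. The day 14 sums were 20100 to 35380 CPM in Olig1 libraries and 20980 to 22460 CPM in GFP libraries. Mgarp alone gave 3290 to 20180 CPM. Without Mgarp the 12 other genes summed to 945 to 3921 CPM in Olig1 libraries and 254 to 4104 CPM in GFP libraries at day 7. At day 14 they summed to 6462 to 18200 CPM in Olig1 libraries and 792 to 11020 CPM in GFP libraries. These ranges overlapped at both days.

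Sums of several marker lists differed between Olig1 and GFP libraries, some of them at day 7 only, while the microglia sum followed single libraries. At day 7 the amacrine effector genes summed to 2217 to 10440 CPM in Olig1 libraries and 242 to 437 CPM in GFP libraries, and at day 14 to 896 to 1133 CPM in Olig1 libraries and 380 to 544 CPM in GFP libraries. Npy, a neuropeptide gene, gave 8889 CPM of this in Olig1 day 7 replicate 3, and without it the day 7 sums were 1548 to 5341 CPM in Olig1 libraries and 231 to 434 CPM in GFP libraries. The 15 rod markers summed to 708 to 1488 CPM in Olig1 libraries and 14330 to 66460 CPM in GFP libraries at day 7, and to 1300 to 14930 CPM in Olig1 libraries and 5086 to 66310 CPM in GFP libraries at day 14. The 17 bipolar markers summed to 283 to 574 CPM in Olig1 libraries and 1595 to 2885 CPM in GFP libraries at day 7, and to 400 to 709 CPM in Olig1 libraries and 1947 to 6710 CPM in GFP libraries at day 14. Without Apoe the 17 remaining Müller glia markers summed to 10920 to 19970 CPM in Olig1 libraries and 34970 to 67180 CPM in GFP libraries at day 7, and to 27520 to 43180 CPM in Olig1 libraries and 26730 to 50460 CPM in GFP libraries at day 14. Glul, the glutamine synthetase of Müller glia, had 245 to 936 CPM in Olig1 libraries and 3770 to 5081 CPM in GFP libraries at day 7. Slc17a6, the glutamate transporter of ganglion cells, had 92.6, 30.8 and 36.0 CPM in Olig1 libraries at day 7, against 0.107, 0 and 0 CPM in GFP libraries. The 14 microglia and macrophage markers summed to 1517 CPM in Olig1 day 7 replicate 3, 2951 CPM in GFP day 7 replicate 3 and 7130 and 10390 CPM in GFP day 14 replicates 2 and 3, and to at most 50.9 CPM in the other libraries. Without these 4 libraries Tfap2b was at 1.89 ± 0.65 over the mean of both days and was not called (edgeR adjusted p = 0.148). The part of these other cells in the levels of the factors was not tested.

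For each factor, the genes whose log2(CPM + 1) followed it most closely over the 12 libraries were listed; each is the top of 14985 genes, so high correlations arise by selection, and the libraries share groups and, for 1 pair, a floor. For Pax6 they included Csdc2 (Pearson r = 0.86, n = 12) and Kif5c (r = 0.84). For Tfap2b they included Arhgap44 (r = 0.91, Spearman rho = 0.88) and Gabbr1, a GABA-B receptor subunit (r = 0.90). For Tfap2a they were Dok5 (r = 0.91), Hbegf and Chst10 (both r = 0.89). Tfap2c was followed by Rab40c (r = 0.98, rho = 0.74), Dsel (r = 0.94) and Tmem229a (r = 0.93). Prox1 had the lowest first value, with Enkd1, Rapgef1 (both r = 0.84) and Lztfl1 (r = 0.83), and Meis2 was followed by Zfp235 (r = 0.91), Rai2 (r = 0.88) and Ap2b1 (r = 0.86). Onecut1 was followed by Fancg (r = 0.96), Wtip (r = 0.95) and Chmp4c (r = 0.94), Onecut2 by Cmbl (r = 0.91), Olfml3 (r = 0.90) and Etaa1os (r = 0.89), and Lhx1 by Slc25a21 (r = 0.96), Arap1 and Fbxl22 (both r = 0.90). The lists depended on the measure: of the 27 genes listed, 4 stayed among the 3 closest to their factor by Spearman correlation and 16 with 0.1 in place of 1 added to CPM, and for Tfap2a none stayed under either. The r of the 27 genes was 0.84 to 0.98 without Olig1 day 7 replicate 2.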

How the data were processed

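The deposited values are raw counts of reads per Ensembl gene, made by the authors with FastQC, HISAT2 and HTSeq on mm10, per the submitters' processing notes; no version, annotation or strand option is given in the sources used here. The values came from the series table of 54232 genes. The files of 4 single libraries end in the middle of a line and lack 2.73% to 14.0% of their counts; 0 genes present in both sources differed. Symbols and coordinates came from GENCODE M21 (GRCm38), promoters from RefSeq (GRCm38.p6), which had an entry for 8 of the 9 factors.

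The test was the quasi-likelihood F test of edgeR 4.0.16 (robust fit, scaling by TMM, minimum count of 10, all 12 libraries in 1 fit on 4 groups, Benjamini-Hochberg over 14985 genes, called at adjusted p under 0.05), in R 4.3.3. The code was first run on simulated data with large changes and far less spread between libraries than found here. That run does not show how the test performs at the spread of these data. The common biological coefficient of variation was 1.35. Alternatives were DESeq2 1.42.0 (size factors, or its own Wald test), limma 3.58.1 voom (weights per sample), an unfiltered table, a filter of 10 counts in 6 libraries or more, the compared groups alone, a replicate block, each library left out, and, chosen after seeing the data, the 4 libraries high in microglia markers left out. The labels speak of batches of libraries without assigning them, so batch could not enter a fit. Likeness was the Pearson correlation of log2(CPM + 1). The factors and gene lists were chosen with earlier results of these data known. Named were the 9 factors, Olig1, every gene of the amacrine and horizontal lists called in any comparison, the 3 with the smallest p at each day, the 3 genes most like each factor without predicted gene models, and defining markers (a few genes that this rule names are not reported here); Sept4, Onecut3 and Pax6os1 were singled out after their values were seen.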

Additional observations from a re-analysis of the deposited data

How the results depend on the processing

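The number of factors called differed from the edgeR count under some alternatives. At day 7 (0 called) DESeq2 called 4, limma voom 1 and the test without a filter 1. Over the mean of both days (1 called) DESeq2 called 3, the test without a filter 2, a replicate block 0 and the set without the 4 libraries high in microglia markers 0, and leaving out 1 library gave 0 to 1. DESeq2 called 1 factor (Onecut1, with 0 counts in the GFP day 7 libraries) for the difference between days and 1 (again Onecut1) for time in GFP pools, where edgeR called 0. The log2 fold change of Prox1 at day 7 changed sign by limma voom (-0.38) and ran from -0.75 to 0.86 with 1 library left out, and that of Tfap2a at day 14 was -0.48 with a replicate block. The cause of these changes was not tested.

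Over all genes, the 34 calls at day 7 became 930 by DESeq2, 409 by limma voom and 218 without a filter (1 to 58 with 1 library left out). The 6 calls at day 14 became 750, 30 and 23, with 2 under the stricter filter, 1 with a replicate block, 0 with only these groups and 176 without the microglia-rich libraries (0 to 6 with 1 library left out). The 98 calls over both days became 1136, 453 and 401, 64 with a block and 349 without the microglia-rich libraries (26 to 133). The difference between days gave 527 by DESeq2, 40 without a filter, 1 with a block and 127 without the microglia-rich libraries. Time in Olig1 pools (5) gave 628, 292 and 59, and 0 with DESeq2 size factors, 2 under the stricter filter, 0 with only these groups and 15 without the microglia-rich libraries (0 to 10). Time in GFP pools (0) gave 640, 18 and 13, and 145 without the microglia-rich libraries. Same-numbered libraries of different groups did not deviate together (r from -0.07 to 0.04 over 18 pairs). In such small and variable pools this correlation cannot tell whether they share a batch or an animal. The labels state no pairing. With the replicate block the Tfap2b call over both days was lost (edgeR adjusted p = 0.0574). For the low factors, a library's 0 allows up to 0.239 CPM by counting error alone, and other sources of a 0 were not tested.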

Other observations

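Pax6os1, a noncoding gene on the strand opposite to Pax6 that shares 0 exon bases with it, stood lower in Olig1 libraries at both days. It had 0.163, 0.160 and 4.12 CPM in Olig1 libraries at day 7, against 18.3, 15.4 and 42.6 CPM in GFP libraries, and 12.4, 10.7 and 9.47 CPM in Olig1 libraries at day 14, against 34.2, 17.2 and 23.7 CPM in GFP libraries. The groups did not overlap at either day, as for 18.4% of all genes at day 7 and 11.9% at day 14 in either direction. The log2 fold change did not pass the threshold at day 7 (-4.11 ± 1.46, edgeR adjusted p = 0.267), at day 14 (-1.23 ± 1.31, adjusted p = 0.955) or across the 2 days combined (-2.67 ± 0.97, adjusted p = 0.196). Pax6 itself lay between 376 and 1043 CPM in Olig1 libraries and between 204 and 548 CPM in GFP libraries at day 7. Without Olig1 day 7 replicate 2 the day 7 value of Pax6os1 was -3.64 ± 1.69 (edgeR adjusted p = 0.648). The gene was chosen after its values were seen.

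Onecut3, the remaining Onecut factor, had 0.272, 0.399 and 0.135 CPM in Olig1 libraries at day 7, against 0, 98.1 and 2.93 CPM in GFP libraries. At day 14 it had 3.00, 31.4 and 1.28 CPM in Olig1 libraries, against 0, 0 and 0.501 CPM in GFP libraries. Its highest library, GFP day 7 replicate 2, was also the highest for Onecut2 and Lhx1, while Onecut1 had 0 counts there. Its log2 fold change did not pass the threshold at day 7 (edgeR adjusted p = 0.309, or 0.648 without Olig1 day 7 replicate 2) or day 14 (0.475).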
